A study of Mus musculus with 12 samples.

Results

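The cytosolic ribosomal protein genes were followed in mouse embryonic fibroblasts undergoing conversion to induced motor neurons. Members were chosen by gene symbol (Rps and Rpl names with a number, Rplp0 to Rplp2 and Rpsa, without pseudogene names and S6 kinases), which gave 87 of 23077 gene rows. Of these, 82 reached a value of 10 in at least 3 of the 11 libraries. They comprised 31 genes of the small subunit, 43 of the large subunit, 3 of the ribosomal stalk and 5 paralogs (Rps27l, Rpl22l1, Rpl39l, Rps4l and Rpl7l1). Some genes with other names, such as Fau and Rack1, also encode ribosomal components but lie outside this naming rule. All 82 genes reached 10 in all 11 libraries. The other 5 names (Rpl3l, Rpl6l, Rpl32l, Rps3a2 and Rps3a3) did so in 0 libraries, with a highest value of 3.38. The lowest of those kept was Rps27, at 44.9 to 272.

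Every group started from primary fibroblasts of the Hb9::GFP genotype, a reporter for a motor neuron gene, and received a retrovirus for NIL, the factors Ngn2, Isl1 and Lhx3. RISDD cells also received HRAS(G12V)-IRES-SDD, in which active HRAS precedes SNAP-p53DD, a SNAP-tagged dominant-negative p53 fragment (3 libraries). SDDIR cells received the reverse order, SDD-IRES-HRAS(G12V) (2 libraries), SDD cells received SNAP-p53DD without HRAS (3 libraries), and NIL cells received the conversion factors alone (3 libraries). All cells were moved to N3 medium 3 days after infection and collected after 4 days. RISDD, SDDIR and SDD cells were additionally given RepSox, a TGF-beta receptor inhibitor, and were sorted as SNAP-positive cells, while NIL cells lacked RepSox and were sorted as live single cells. SDD and NIL therefore differ in p53DD, RepSox and sort at once, and these cannot be told apart.

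The cytosolic ribosome is built from ribosomal RNA and a fixed set of proteins, most of them needed in equal numbers in every ribosome. Their mRNAs are abundant and usually begin with a pyrimidine tract (a 5′ terminal oligopyrimidine, or TOP, tract), through which mTORC1 and LARP1 control their translation. The data here are mRNA levels and say nothing about translation. Unassembled Rpl5 and Rpl11 bind MDM2, the ubiquitin ligase of p53, and so link ribosome assembly to p53. Several members have paralogs that are regulated apart from the core set, among them Rps27l, a known transcriptional target of p53.

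RefSeq start windows (GRCm38.p6, 250 bases before to 50 bases after the annotated start) matched 61 of the 82 genes. Within 50 bases of the start, an uninterrupted run of at least 8 C or T on the transcribed strand was found in 83.6% of these 61 genes, against 39.3% of all 27025 genes with windows. The letters CCGGAAG, the core bound by ETS factors, occurred on either strand of the window in 42.6% of the 61 genes, against 9.93% of all genes. ATGGCGGC, the core bound by YY1, occurred on either strand in 6.56%, against 2.60%. Where a gene had several windows, the one with the longest pyrimidine run was used, and the other letters were sought in all its windows. Of the 61 genes, 52 had a single window, and in these the shares were 80.8%, 42.3% and 5.77%, against 35.7%, 9.12% and 2.45% of all genes with 1 window. These are letter matches in fixed windows, not mapped sites. The 30-base stretches below belong to some of the genes named in the results. They show the longest pyrimidine run near the annotated start in capitals, on the transcribed strand.
Rps3 (chr7:99483739-99483768, minus strand): cgcaaaacttcaTTTCCCatgcaaaacttc
Rpl4 (chr9:64173406-64173435, plus strand): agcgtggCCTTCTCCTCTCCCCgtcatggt
Rpl9 (chr5:65391383-65391412, minus strand): acgaaagacgTTCTCTCTTTgccccatcta
Rps6 (chr4:86857349-86857378, minus strand): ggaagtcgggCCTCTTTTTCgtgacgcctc
Rps19 (chr7:24884623-24884652, plus strand): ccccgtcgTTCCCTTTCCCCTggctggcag
Rps27l (chr9:66946054-66946083, plus strand): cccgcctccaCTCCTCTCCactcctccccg
Rpl22l1 (chr3:28805499-28805528, plus strand): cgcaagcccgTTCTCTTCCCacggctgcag
Rpl39l (chr16:10170192-10170221, plus strand): acacccactgCCTCTCCCTagctcccaggc
The run reached 15 bases in Rpl4 and 13 in Rps19, and in Rps3 it had 6 bases, under the minimum of 8. In Rps6 and Rpl22l1 it began within 1 base of the annotated start. In Rps3, Rps19, Rps27l and Rpl39l the longest run lay upstream of the annotated start, and in Rpl4 and Rpl9 downstream of it. The paralogs Rps27l, Rpl22l1 and Rpl39l carried runs of 9, 10 and 9 bases. In the paralog Rpl7l1 the longest run had 7 bases, under the minimum of 8.

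The deposited values were gene counts divided by 1 constant per library, called signal here. Between 14872639 and 29815073 reads per library could be recovered from them. One library, NIL C, stood apart from NIL A and NIL B. Genes encoded in mitochondria took 0.537% of its signal, against 2.60% to 4.04% in the other 10 libraries. In NIL C, 55 of the 82 ribosomal protein genes lay above both NIL A and NIL B, 23 lay below both and 4 lay between. The ratio of NIL C to the mean of NIL A and NIL B ran from 0.103 for Rpl22l1 to 3.24 for Rpl36, with a median of 1.35. NIL C was the highest of the 11 libraries for 53 genes and the lowest for 20. Counts of ribosomal protein genes called are therefore given with and without it. The labels number bioreps by letter without saying whether cultures were separate, so p-values here reflect only the spread among these libraries.

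**Figure D1:**
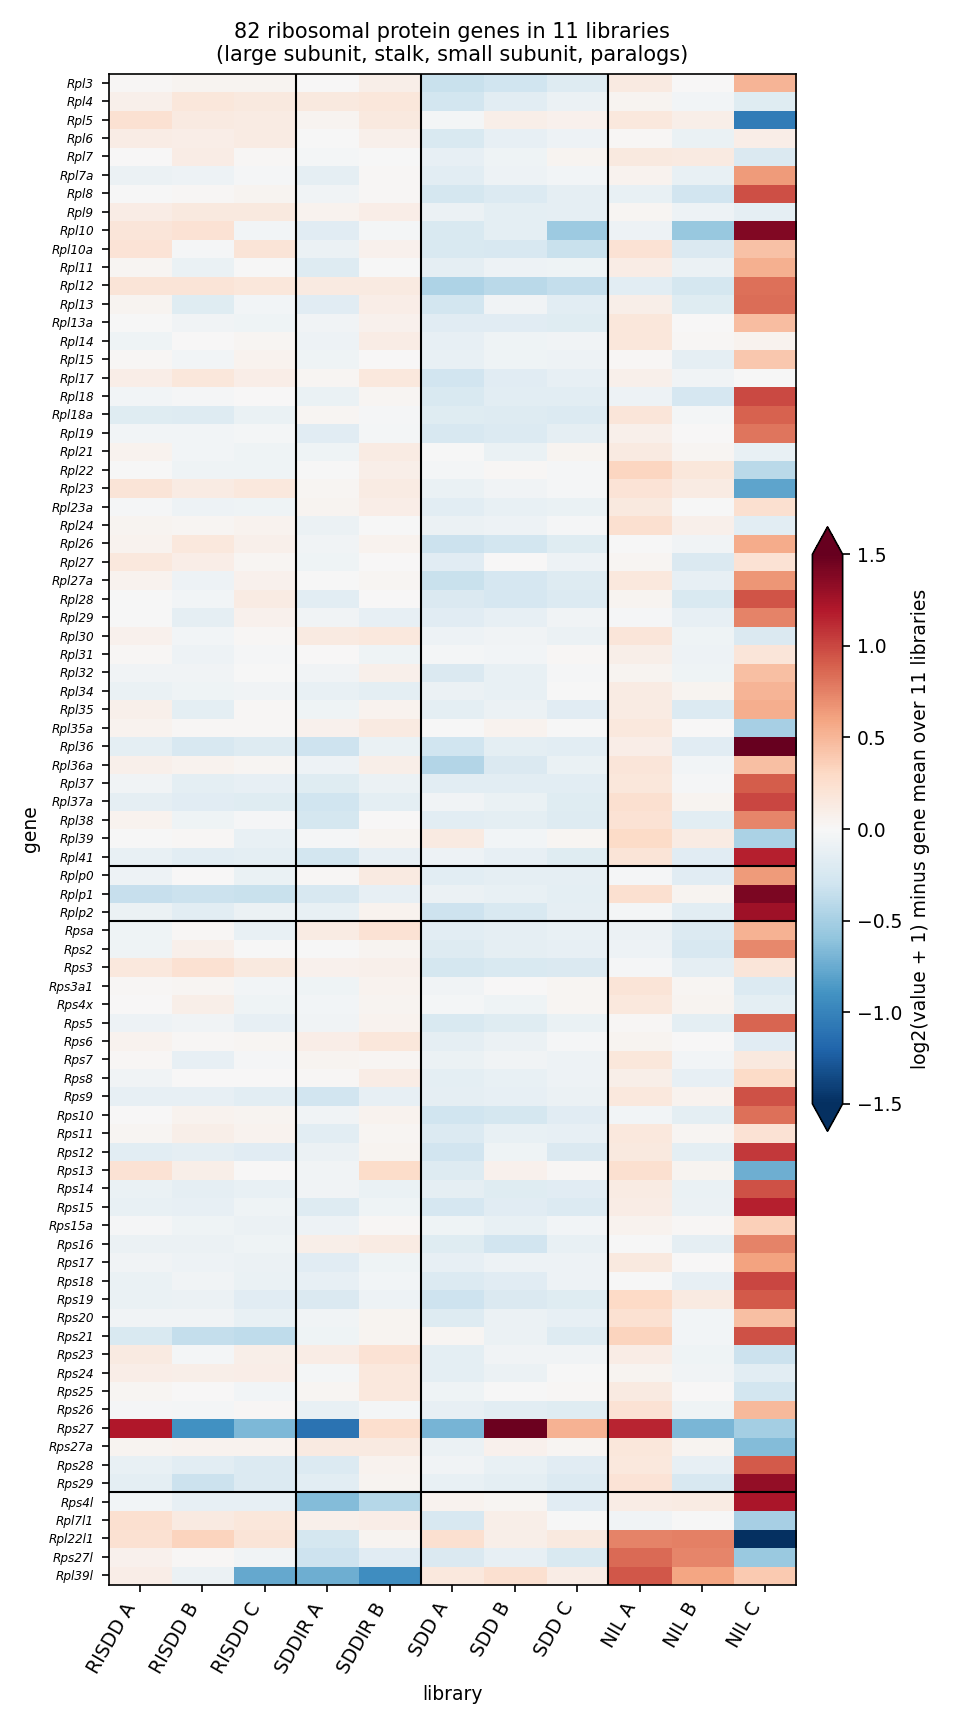
Heat map of 82 ribosomal protein genes (rows, grouped as large subunit, stalk, small subunit and paralogs) in 11 libraries (columns, grouped as RISDD, SDDIR, SDD and NIL). Colour is log2(value + 1) minus the gene's mean over the 11 libraries. The NIL C column is strongly coloured in both directions, with 53 genes at their highest and 20 at their lowest there, while the other 10 columns are pale for most genes.

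The members as a whole held a narrow range in the other 10 libraries. Without NIL C, 72 of the 82 genes had all 10 values within 1.5-fold of each other (87.8%, against 19.0% of the 14207 genes tested), and 78 lay within 2-fold (95.1%, against 43.6%). The genes tested include many with far lower signal than most members, and counting noise is larger in such rows. The shares were not compared at equal signal. The median ratio of a member's highest to its lowest library was 1.29 without NIL C and 1.78 with it. The genes outside the 2-fold range were Rps27, Rpl39l, Rps27l and Rpl22l1, with ratios of 6.05, 3.66, 2.23 and 2.04. Of these 4, 3 are paralogs, and the row of Rps27 held far less signal than that of its retrogene copy.

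Together the 82 genes took 4.20%, 4.10% and 4.17% of all signal in RISDD libraries and 4.47% and 4.59% in SDDIR libraries. In SDD libraries they took 3.80%, 3.92% and 3.97%, and in NIL libraries 4.39%, 3.89% and 5.39%. The group means were 4.16% ± 0.0522 in RISDD (SD, n = 3), 4.53% ± 0.0878 in SDDIR (n = 2), 3.89% ± 0.0865 in SDD (n = 3) and 4.56% ± 0.765 in NIL (n = 3). Without NIL C the NIL mean was 4.14% ± 0.354 (n = 2). All RISDD and SDDIR libraries lay above all SDD libraries, and the SDDIR libraries lay above the RISDD libraries. A share also depends on the total signal it is divided by. That total was 16962235 and 17632051 in SDDIR libraries, 18450776 to 18940768 in RISDD libraries and 18254152 to 18316487 in SDD libraries. The members' own median log2 change in RISDD against SDDIR was 0.01 on the deposited scale and -0.14 with quantile scaling. Whether the higher share in SDDIR lies with the members or with the total thus depends on the scaling, and was not tested. SDD and NIL overlapped, since NIL B lay inside the SDD range. Counting error was small beside these differences: in SDDIR B, the library with the fewest reads, the 95% exact binomial interval ran from 4.58% to 4.60%, which covers counting error only. In bulk libraries fewer cells of a type and less RNA per cell cannot be told apart, and a share says nothing of the amount of RNA in a cell.

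**Figure D2:**
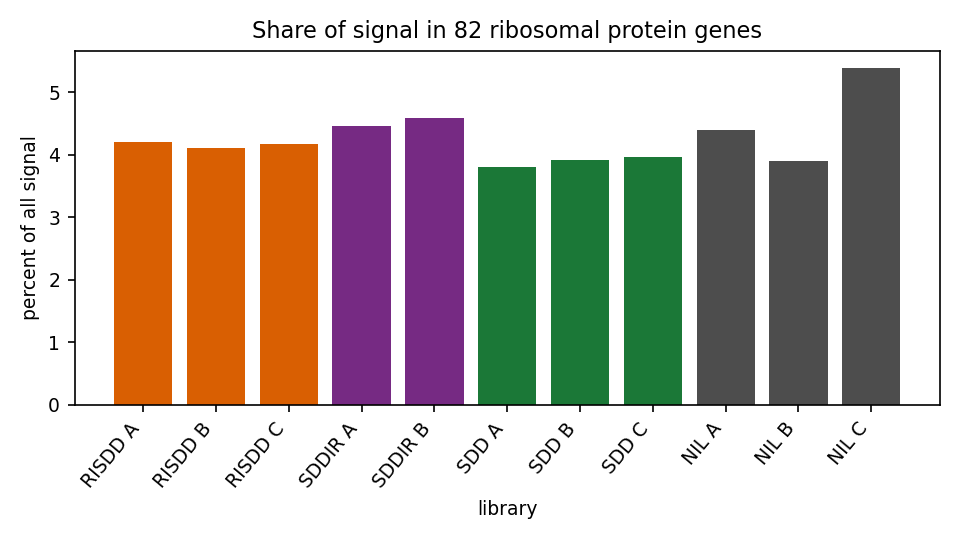
Percent of all signal held by the 82 ribosomal protein genes in each of 11 libraries (bars, 1 per library, coloured by group; axis from 0). RISDD libraries lie at 4.10% to 4.20% and SDDIR libraries at 4.47% and 4.59%, above the SDD libraries at 3.80% to 3.97%, while NIL libraries spread from 3.89% to 5.39%.

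The comparison of SDD with NIL asks what p53DD, with RepSox and the SNAP sort, does to a culture that carries the conversion factors. Most ribosomal protein genes had lower values in SDD than in NIL, though few passed the test. Of the 82, 71 had a log2 change below 0, and the median log2 change was -0.30, against 0.05 over all genes tested. By limma on log2(value + 1), 2 genes fell and 0 rose at an adjusted p under 0.05, where 17.6% of all tested genes were called (9.32% higher and 8.26% lower). At an unadjusted p under 0.05, 25 were lower and 0 higher, where 15.9% of all tested genes were lower and 17.7% higher. edgeR on the recovered reads called 2 lower and 0 higher (8.86% and 8.59% of all tested genes), and DESeq2 called 21 lower and 0 higher (13.1% and 12.5%). In 30 genes every SDD library lay below every NIL library (17.3% of all tested genes did so), and in 0 genes above (19.0%).

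Rps19, a small-subunit protein best known for its mutation in Diamond-Blackfan anaemia, had 5965, 6351 and 6531 signal in SDD libraries, against 9053, 8083 and 13943 in NIL libraries. Every SDD library lay below every NIL library, and the log2 change was -0.68 (SE 0.18, adjusted p = 0.0251). Without NIL C the log2 change was -0.45 (adjusted p = 0.00238, and 0.00174 to 0.130 over all alternatives). Rpl3, a large-subunit protein near the peptidyl transferase centre, had 13579, 13895 and 14947 signal in SDD libraries, against 18725, 17255 and 24390 in NIL libraries. The groups did not overlap, with a log2 change of -0.49 (SE 0.13, adjusted p = 0.0276) and, without NIL C, of -0.35 (adjusted p = 0.00484, and 0.00190 to 0.144 over all alternatives). Both calls were lost without SDD A, SDD B or SDD C (adjusted p = 0.0636 to 0.0861), so that 0 genes were then called, and both were lost with only the SDD and NIL libraries in the fit. The fit with only those libraries called 4.91% of all tested genes (2.29% lower), far fewer than the main fit.

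Leaving out NIL C changed these counts. Without it, 19 genes fell and 0 rose (by limma, where 29.1% of all tested genes were called, 15.2% higher and 13.9% lower), and 32 were lower and 0 higher at an unadjusted p under 0.05 (40.9% of all tested genes in either direction). The median log2 change over the 82 genes was then -0.14, against -0.001 over all genes, and 77 of the 82 were below 0. In 40 genes every SDD library lay below both NIL A and NIL B (26.7% of all tested genes), and in 0 genes above (27.0%). The calls fell on 13 of 43 large-subunit genes, 3 of 31 small-subunit genes, 1 of 3 stalk genes and 2 of 5 paralogs. Leaving out NIL B instead gave 27 genes lower and a median of -0.46. The share of all tested genes called in that fit is not given here, so the 27 cannot be set against it. The largest fall without NIL C was in Rps27l, whose protein shares the place of Rps27 in the small subunit. It had 1706, 1814 and 1682 signal in SDD libraries, against 3561, 3272 and 1339 in NIL libraries. NIL C lay below all SDD libraries, while NIL A and NIL B were far above them. The log2 change was -0.53 (SE 0.30, adjusted p = 0.236) with NIL C and -0.98 (SE 0.08, adjusted p = 2.66e-05, and up to 0.512 over all alternatives) without it.

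Rpl22l1, the paralog of the large-subunit protein Rpl22, had 870, 786 and 816 signal in SDD libraries, against 1243, 1254 and 129 in NIL libraries. Its direction turned on NIL C: the log2 change was 0.49 with it (adjusted p = 0.638) and -0.60 without it (adjusted p = 0.00189, and up to 0.930 over all alternatives). After Rps27l, Rpl22l1, Rps19 and Rpl3, the next largest fall without NIL C was that of Rpl36a, with a log2 change of -0.32 (adjusted p = 0.0458, and 0.0164 to 0.211 over all alternatives). Markers of other cells differed between these groups as well. The summed signal of 5 leukocyte markers was 430 to 1162 in SDD and 2936 to 10975 in NIL, and 2 of the 5 fell in SDD. Of 6 motor neuron markers 4 were tested, 3 of those rose, and their sum was 963 to 1813 in SDD and 469 to 527 in NIL. The part of these cells in the ribosomal protein result was not tested.

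The MDM2-binding members did not pass in this comparison. Rpl5, which with Rpl11 carries 5S ribosomal RNA, had 3888, 4231 and 4158 signal in SDD libraries, against 4432, 4224 and 1924 in NIL libraries. Without NIL C its log2 change was -0.08 (adjusted p = 0.424, within 0.176 to 0.598 across the alternatives). With NIL C its 95% interval ran from -0.27 to 0.89. Rpl11 had 8081, 8432 and 8504 signal in SDD libraries, against 9604, 8329 and 12896 in NIL libraries, with a log2 change of -0.28 (95% interval -0.61 to 0.06), and of -0.10 without NIL C (95% interval -0.29 to 0.09). The groups overlapped in each gene. Mdm2 itself, a p53 target, had 2160, 2570 and 2416 signal in SDD libraries, against 5693, 6598 and 4450 in NIL libraries, and fell by 1.21 on the log2 scale (SE 0.15, adjusted p = 0.000848), and by 1.37 without NIL C (adjusted p = 1.79e-05). For Rps6, the substrate of S6 kinase, the 95% interval ran from -0.26 to 0.18, and from -0.25 to 0.03 without NIL C. For Rpsa, a small-subunit protein and laminin receptor precursor, it ran from -0.59 to 0.16. The estimate for Rpsa turned to 0.01 without NIL C, with an interval from -0.14 to 0.16. The stalk genes Rplp0, Rplp1 and Rplp2 did not pass with NIL C, at log2 changes of -0.68 to -0.29. Without NIL C, Rplp1 fell (log2 change -0.255, adjusted p = 0.0249), while Rplp2 (-0.13) and Rplp0 (-0.05) did not pass.

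**Figure D3:**
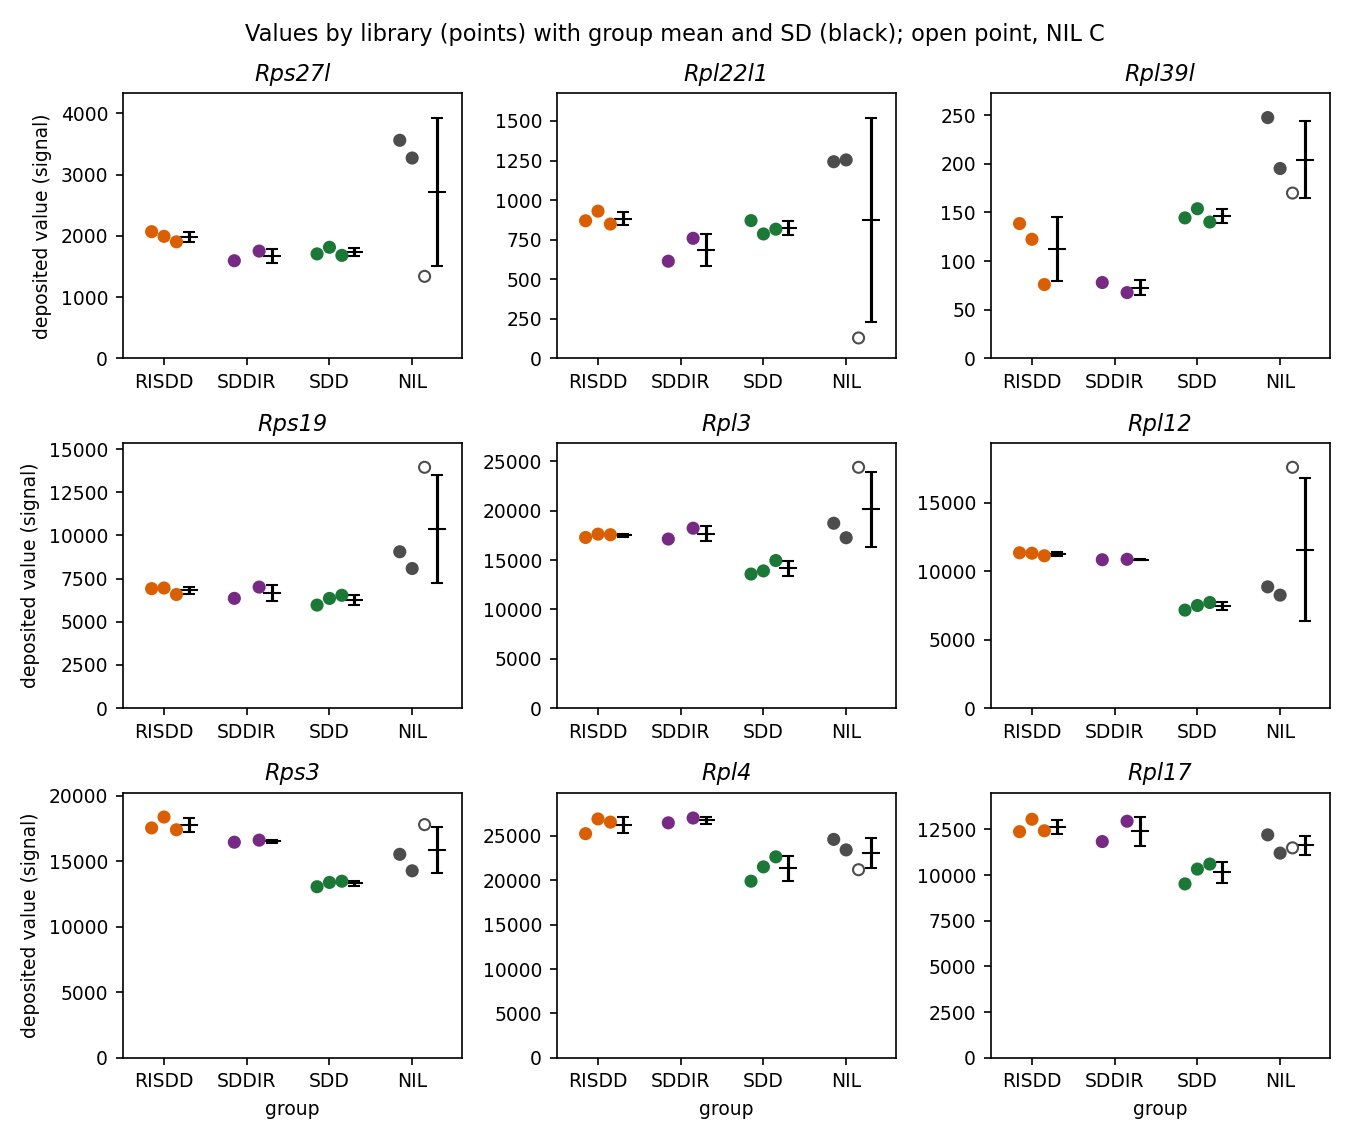
Deposited value (signal, linear axis from 0) of 9 ribosomal protein genes by library, with each group's mean and SD in black (n = 3, and 2 in SDDIR) and NIL C as the open point. Rps27l and Rpl22l1 are lower in SDD than in NIL A and NIL B but not than in NIL C. Rpl39l has its lowest mean in SDDIR, with RISDD C between SDDIR A and SDDIR B. Rpl12, Rps3, Rpl4 and Rpl17 are higher in every RISDD and SDDIR library than in any SDD library.

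The comparisons with SDD ask what active HRAS adds when every group receives p53DD, RepSox and the sort. The level of p53DD is not held fixed by the design, since its place in the cassette differs between groups. The Trp53 row had 43128, 44579 and 46185 signal in RISDD libraries, 29277 and 37068 in SDDIR libraries, and 32346, 40363 and 40127 in SDD libraries. Active HRAS and the level of p53DD cannot be told apart here. RISDD and SDDIR are set against the same 3 SDD libraries, so their changes are not independent of each other. In RISDD, 4 ribosomal protein genes rose and 0 fell, where 42.6% of all tested genes were called (20.0% higher and 22.6% lower), and the share of members called was far below that. At an unadjusted p under 0.05, 9 genes were higher and 0 lower, where 24% of all tested genes were higher and 26% lower. edgeR called 2 higher and 0 lower (19.4% and 23.1% of all tested genes), and DESeq2 7 higher and 0 lower (22.4% and 24.6%). The log2 change was above 0 in 69 of the 82 genes, with a median of 0.09 against 0.02 over all genes, and the median was 0.004 with quantile scaling. In 42 genes every RISDD library lay above every SDD library (36.1% of all tested genes) and in 3 below (34.6%).

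The genes that rose were Rps3, Rpl17, Rpl4 and Rpl9. Rps3, a protein of the mRNA entry channel that also acts in DNA repair, had 17548, 18380 and 17406 signal in RISDD libraries, against 13059, 13389 and 13480 in SDD libraries. The groups were well apart, with a log2 change of 0.42 (SE 0.10, adjusted p = 0.00851). This was the only one of the 4 calls that held in all alternatives run (adjusted p = 6.47e-05 to 0.0393). SDDIR libraries, at 16458 and 16615, lay between RISDD and SDD.

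Rpl17, a protein at the nascent peptide exit tunnel, had 12374, 13052 and 12421 signal in RISDD libraries, against 9516, 10325 and 10601 in SDD libraries (log2 change 0.32, SE 0.10, adjusted p = 0.0238). Rpl4, which also lines the exit tunnel, had 25249, 26910 and 26551 signal in RISDD libraries, against 19898, 21507 and 22640 in SDD libraries (log2 change 0.30, SE 0.10, adjusted p = 0.0365). Rpl9, a protein of the stalk base, had 11437, 11801 and 11741 signal in RISDD libraries, against 9961, 9573 and 9693 in SDD libraries (log2 change 0.26, SE 0.09, adjusted p = 0.0435). In each of these genes all RISDD libraries lay above all SDD libraries. The calls were near the threshold: over the alternatives the adjusted p reached 0.114 for Rpl17, 0.119 for Rpl4 and 0.350 for Rpl9. The count of genes that rose was 1 without SDD A or SDD B or without any one of the RISDD libraries, 2 without SDD C, and 6 without NIL B. The shares of all tested genes called in those fits are not given here, so these counts cannot be set against them.

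NIL C is in neither of these groups, but it enters the spread that the fit shares among groups. Without it 21 genes rose in RISDD and 1 fell, where 63.2% of all tested genes were called (32.0% higher and 31.2% lower). With only the RISDD and SDD libraries in the fit, 21 rose and 2 fell (31.9% and 31.2% of all tested genes). The largest rise without NIL C was in Rpl12, a protein of the stalk base. It had 11333, 11304 and 11116 signal in RISDD libraries, 10826 and 10858 in SDDIR libraries, and 7151, 7485 and 7706 in SDD libraries. The log2 change in RISDD was 0.60 with and without NIL C, with an adjusted p of 0.0626 with it and 7.25e-06 without it (up to 0.152 over all alternatives). Without NIL C the next largest rises were those of Rpl10 (log2 change 0.43), Rps3 (0.42), Rpl10a (0.39) and Rpl26 (0.35). Over the alternatives the adjusted p ran from 0.00238 to 0.30 for Rpl10a and from 0.000676 to 0.220 for Rpl26. Rpl10 and Rpl10a share reads with abundant copies, as given below. The gene that fell was Rplp1, an acidic protein of the stalk, with 13564, 13790 and 13704 signal in RISDD libraries, against 16195, 15970 and 15590 in SDD libraries. Its log2 change was -0.22, with an adjusted p of 0.569 with NIL C and 0.0134 without it (0.00792 to 0.690 over all alternatives).

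In SDDIR, 1 gene fell and 0 rose against SDD (22.5% of all tested genes called, 8.66% higher and 13.9% lower). At an unadjusted p under 0.05, 3 genes were higher and 1 lower, where 14.4% of all tested genes were higher and 19.4% lower. edgeR called 0 higher and 1 lower (8.78% and 13.4% of all tested genes), and DESeq2 called 4 higher and 1 lower (11.7% and 16.5%). The log2 change was above 0 in 66 of the 82 genes, with a median of 0.11 against 0.01 over all genes. In 38 genes both SDDIR libraries lay above every SDD library (32.6% of all tested genes), and in 3 below (32.3%). The gene that fell was Rpl39l, a paralog of Rpl39 described mainly in testis. It had 77.9 and 67.6 signal in SDDIR libraries, against 144, 154 and 140 in SDD libraries. RISDD C lay between SDDIR A and SDDIR B, while RISDD A and RISDD B were higher. The log2 change was -0.998 (SE 0.27, adjusted p = 0.0236), and without NIL C the adjusted p was 0.00715 (0.00563 to 0.155 over all alternatives). The call was lost without SDDIR A, SDDIR B, SDD A, SDD B or SDD C, so that 0 genes were then called.

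Without NIL C, 17 genes rose in SDDIR and 3 fell (44.6% of all tested genes called, 21.5% higher and 23.1% lower), and with only the SDDIR and SDD libraries in the fit 8 rose and 2 fell (16.9% and 20.8% of all tested genes). The largest rises without NIL C were those of Rpl12, with a log2 change of 0.54 (adjusted p = 9.34e-05, against 0.175 with NIL C and up to 0.417 over all alternatives), Rpl4 (0.33), Rpl3 (0.32), Rps3 (0.31) and Rpsa (0.30). Rpsa had 30001 and 32000 signal in SDDIR libraries, against 24707, 25182 and 25536 in SDD libraries. Rpl4 had 26470 and 27012 signal in SDDIR libraries, above all SDD libraries. Rps6 (log2 change 0.22, adjusted p = 0.0178) and Rplp0 (0.22, adjusted p = 0.0241) were also among the 17. Over all alternatives their adjusted p reached 0.545 and 0.787. The 3 that fell were all paralogs: Rpl39l, Rps4l and Rpl22l1. Quantile scaling gave 6 genes higher and 1 lower, and upper-quartile scaling 1 of each, with no share of all tested genes given for these scalings.

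Markers of several cell types moved with both HRAS groups. The summed signal of 8 fibroblast markers was 165620 to 172400 in RISDD, 195342 and 215770 in SDDIR, and 519553 to 641588 in SDD. Of the 8, 7 fell in RISDD and 6 in SDDIR, and 1 rose in each. The summed signal of 4 epithelial markers was 8467 to 12615 in RISDD, 2389 and 3719 in SDDIR, and 15.8 to 25.1 in SDD, with Cdh1 at 0 in SDD, and 4 of the 4 rose in RISDD and 2 in SDDIR. The summed signal of 5 neuron markers was 1234 to 1472 in RISDD, 1873 and 2830 in SDDIR, and 4330 to 5964 in SDD. Of the 4 tested, 3 fell and 1 rose in RISDD, and in SDDIR 1 fell, namely Dcx, with a log2 change of -3.98 (adjusted p = 0.0105). The sum of 6 motor neuron markers was 817 to 993 in RISDD, 331 and 268 in SDDIR, and 963 to 1813 in SDD. Of the 4 tested, 3 fell in RISDD and 2 in SDDIR, Prph among them in each, and Slc5a7 rose in RISDD. The 5 leukocyte markers summed to 657 to 1116 in RISDD, 350 and 731 in SDDIR, and 430 to 1162 in SDD. Of these, Cd68 rose in RISDD by 2.83 (adjusted p = 0.000234) and in SDDIR by 1.95 (adjusted p = 0.0102) on the log2 scale, and 1 other fell in RISDD. The sum of 3 erythroid markers did not exceed 5.06 in any library. The part of these cell states in the ribosomal protein result was not tested.

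**Figure D4:**
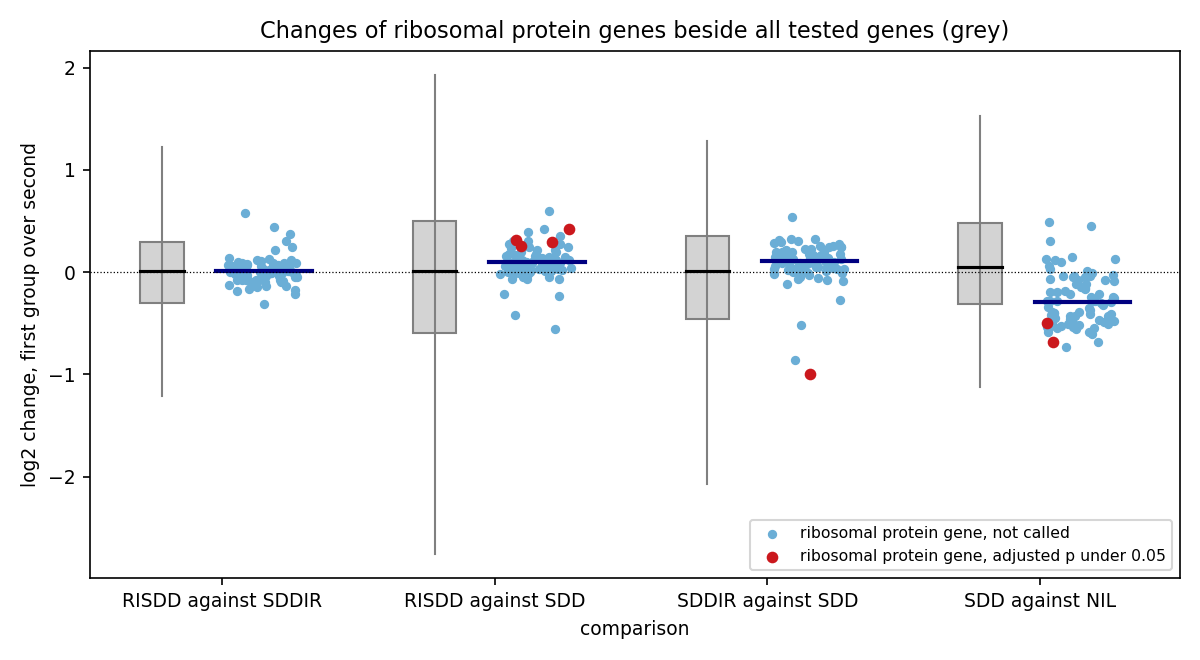
Log2 change of each of the 82 ribosomal protein genes (points; red, adjusted p under 0.05; dark line, their median) in 4 comparisons, beside all 14207 genes tested (grey box, the middle 50%; black line, median; whisker, 5th to 95th percentile). The members are clustered near 0 in both comparisons with SDD and in RISDD against SDDIR, with 4, 1 and 0 genes called, and centre on -0.30 in SDD against NIL.

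Setting RISDD against SDDIR asks what the order of the cassette adds. By limma 0 genes rose and 0 fell (9.69% of all tested genes called, 4.64% higher and 5.05% lower). At an unadjusted p under 0.05 there were also 0 in each direction (23.8% of all tested genes in both together), and edgeR and DESeq2 each called 0 (9.46% and 15.9%). The median log2 change was 0.01, equal to that over all genes at this precision. It was below 0 with upper-quartile scaling (-0.03), with quantile scaling (-0.14), with a replicate block (-0.03), with edgeR (-0.01) and without SDDIR A (-0.04). In 14 genes every RISDD library lay above both SDDIR libraries (31.0% of all tested genes) and in 14 below (29.0%). The 95% interval lay within a 2-fold change in either direction for 77 of the 82 genes (93.9%), against 53.4% of all genes tested. A p that misses the threshold does not show that the groups are alike, and for the other 5 genes a 2-fold change lies within the interval. The same share was 95.1% for RISDD against SDD, where it was 43.4% of all genes, 92.7% for SDDIR against SDD (47.8%) and 80.5% for SDD against NIL (52.3%). Related lists came near the members in SDD against NIL. It was 87.2% of mitochondrial ribosomal protein genes, 81% of other TOP and translation genes and 76.3% of ribosome biogenesis genes. In SDDIR against SDD it was 89.7% of mitochondrial ribosomal protein genes. Narrow intervals were thus not particular to the members.

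Without NIL C, 3 genes rose in RISDD against SDDIR and 1 fell (29.4% of all tested genes called, 14.9% higher and 14.5% lower). The genes that rose were all paralogs: Rps4l, with a log2 change of 0.45 (adjusted p = 0.00676, and 0.00568 to 0.815 over all alternatives), Rpl22l1, with 0.37 (adjusted p = 0.0193, and up to 0.978), and Rps27l, with 0.25 (adjusted p = 0.0346, and 0.0309 to 0.944). Rpsa fell, with a log2 change of -0.22 (adjusted p = 0.0369, and 0.0343 to 0.853 over all alternatives). Rplp0, the core of the stalk, Rplp1 and Rplp2, which bind it, and Rps6 did not pass in this comparison in either fit, and had log2 changes of -0.14, -0.15, -0.08 and -0.10.

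Paralogs of core genes were among the members that varied most between groups. Rps4l, a copy of the X-linked small-subunit gene Rps4x, had 965, 905 and 906 signal in RISDD libraries, 628 and 733 in SDDIR libraries, 1027, 1008 and 882 in SDD libraries, and 1069, 1081 and 2315 in NIL libraries. The ratio of its signal to that of Rps4x, with no correction for length, was 0.0529 to 0.0596 in RISDD, 0.0401 and 0.0442 in SDDIR, 0.0537 to 0.0652 in SDD and 0.0591 to 0.159 in NIL. Rps4x itself ranged from 14605 to 18099 over all 11 libraries. Both SDDIR ratios lay below those of every other library.

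The ratio of Rpl22l1 to Rpl22 was 0.208 to 0.231 in RISDD libraries, 0.148 and 0.170 in SDDIR libraries, 0.186 to 0.212 in SDD libraries, and 0.237, 0.267 and 0.0406 in NIL A, NIL B and NIL C. Rpl22 is known to restrain Rpl22l1. In SDDIR libraries Rpl22l1 was at 614 and 759 signal, below all SDD libraries, while Rpl22 had 4160 and 4456 in SDDIR libraries, against 4100, 4230 and 4124 in SDD libraries. The ratio of Rpl39l to Rpl39 was 0.0220 to 0.0374 in RISDD libraries, 0.0212 and 0.0177 in SDDIR libraries, 0.0355 to 0.0425 in SDD libraries, and 0.0483 to 0.0635 in NIL libraries. Every NIL library lay above all others, and for Rpl39l the log2 change in SDD against NIL was -0.46 (adjusted p = 0.207), and -0.59 without NIL C (adjusted p = 0.0948, within 0.0930 to 0.396 across the alternatives).

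Rpl7l1, a nucleolar relative of Rpl7 that acts in ribosome assembly, was not among the paralogs that fell in SDDIR. It had 2429, 2246 and 2305 signal in RISDD libraries, 2169 and 2188 in SDDIR libraries, and 1731, 2178 and 2037 in SDD libraries. Its log2 change in RISDD against SDD was 0.24, with an adjusted p of 0.230 with NIL C and 0.0294 without it (the lowest over all alternatives, the highest being 0.542).

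Some rows share reads with close copies, and how the quantification split them could move their values. Named pseudogene and retrogene copies made up 236 rows, of which 22 passed the filter on low values, and 59 of the 82 genes had at least 1. Copies held over 10 units of signal per 100 of the parent row in 15 genes, and over 100 per 100 in Rps27, Rpl10, Rps23, Rpl27 and Rpl10a (medians over libraries). The extreme case was Rps27, whose row held 44.9 to 272 signal while Rps27rt, its retrogene copy, held 3457 to 5770. Together they gave 4049, 4237 and 4080 signal in RISDD libraries, 4558 and 4892 in SDDIR libraries, 5424, 5213 and 5422 in SDD libraries, and 5986, 5493 and 3525 in NIL libraries. For the sum, all RISDD and SDDIR libraries lay below all SDD libraries, and this sum was chosen after its values were seen. With each gene summed with its named copies, the counts of genes called were 4, 1, 2 and 0 in RISDD against SDD, SDDIR against SDD, SDD against NIL and RISDD against SDDIR, as without summing.

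Other genes of protein synthesis changed to different extents. Of 38 ribosome biogenesis genes, which make and process ribosomal RNA and assemble subunits, 19 rose and 0 fell in RISDD against SDD, with a median log2 change of 0.59 against 0.09 for the ribosomal proteins and 0.02 for all genes. Of all tested genes, 20.0% rose and 22.6% fell there. Utp4, a subunit of the small-subunit processome, had 3140, 3169 and 3246 signal in RISDD libraries, 2066 and 1955 in SDDIR libraries, and 848, 1374 and 1262 in SDD libraries. All RISDD libraries lay above all SDDIR libraries, and those above all SDD libraries. The log2 change in RISDD against SDD was 1.48 (SE 0.17, adjusted p = 7.02e-05). Nop2, a ribosomal RNA methyltransferase, and Polr1e, a subunit of RNA polymerase I, rose by 1.22 (adjusted p = 0.00250) and 1.12 (adjusted p = 0.000730) on the log2 scale. In Utp4, Nop2 and Polr1e, SDD A lay well below SDD B and SDD C (for Nop2 917, 1584 and 1603 signal, in that order). The biogenesis list was not refitted without SDD A, so how far its medians and counts against SDD rest on that library was not tested.

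In SDDIR against SDD, 2 of the 38 biogenesis genes rose and 0 fell (median 0.20), and Polr1e and Utp4 were the ones that rose. In RISDD against SDDIR, 2 rose and 0 fell (median 0.40), namely Tsr1, a factor of small-subunit maturation, by 0.72 and Sbds, a factor that releases eIF6 from the large subunit, by 0.56. In SDD against NIL 0 rose and 1 fell, with a median of -0.11. Of all tested genes, 8.66%, 4.64% and 9.32% rose in these comparisons, in the order given, and 13.9%, 5.05% and 8.26% fell. Without NIL C the counts were 31 higher and 0 lower in RISDD against SDD, 8 and 1 in SDDIR against SDD, 14 and 1 in RISDD against SDDIR, and 1 and 2 in SDD against NIL. Of all tested genes, 32.0%, 21.5%, 14.9% and 15.2% were then higher and 31.2%, 23.1%, 14.5% and 13.9% lower.

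Other genes with known TOP tracts or roles in translation, 21 tested of 23 listed, had 6 higher and 0 lower in RISDD against SDD (median 0.24) and 2 higher and 0 lower in SDDIR against SDD (median 0.13). Of all tested genes, 20.0% were higher and 22.6% lower in RISDD, and 8.66% higher and 13.9% lower in SDDIR. Without NIL C the counts were 15 higher and 0 lower in RISDD, where 32.0% of all tested genes were higher, and 8 and 0 in SDDIR, where 21.5% were. Eif4b, which helps the helicase eIF4A, had 9006, 9048 and 8981 signal in RISDD libraries, 8357 and 8889 in SDDIR libraries, and 6409, 6509 and 6483 in SDD libraries. It rose in both, by 0.48 in RISDD (adjusted p = 0.00163) and by 0.41 in SDDIR (adjusted p = 0.0143). In SDD against NIL, 3 of the 21 fell and 0 rose (median -0.23), where 8.26% of all tested genes fell. Without NIL C, 7 fell and 0 rose (median -0.17), where 13.9% of all tested genes fell. The 3 called with NIL C were Vim, a filament gene that is also a fibroblast marker here, Eef1b2, an exchange factor of translation elongation, and Tpt1. Eef1b2 had 8052, 8661 and 8711 signal in SDD libraries, against 10889, 10476 and 10569 in NIL libraries.

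Mitochondrial ribosomal proteins, which build a separate ribosome, had calls in both directions, and a smaller share was called than among all tested genes. Of 78, 11 rose and 6 fell in RISDD against SDD (median 0.03), 6 rose and 2 fell in SDDIR against SDD (median 0.16), 1 rose and 0 fell in RISDD against SDDIR (median -0.08), and 0 rose and 3 fell in SDD against NIL (median -0.10). Of all tested genes, 42.6%, 22.5%, 9.69% and 17.6% were called in these comparisons. Without NIL C the counts were 22 and 9, 23 and 2, 1 and 6, and 2 and 5. Of all tested genes, 63.2%, 44.6%, 29.4% and 29.1% were then called. Mrps6 had a log2 change of 1.06 in RISDD against SDD (adjusted p = 0.000422), 1.21 in SDDIR against SDD (adjusted p = 0.00112) and -0.55 in SDD against NIL (adjusted p = 0.0422).

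Regulators upstream of TOP mRNAs changed individually. Of 16 such genes, 3 rose and 3 fell in RISDD against SDD, where 42.6% of all tested genes were called. Without NIL C, 5 rose and 4 fell (63.2% of all tested genes). With NIL C, the changes included the translation repressors, with Eif4ebp1 higher by 0.85 (adjusted p = 0.00886) and Eif4ebp2 lower by 0.85 (log2 change -0.85, adjusted p = 8.70e-05). Eif4ebp2 also fell in SDDIR against SDD, by 0.64 on the log2 scale (adjusted p = 0.00300). Mtor itself rose by 0.66 in SDD against NIL (adjusted p = 0.00749), and by 0.79 without NIL C (adjusted p = 0.000171). Mdm2 had 6303, 6150 and 6811 signal in RISDD libraries, 3119 and 2729 in SDDIR libraries, and 2160, 2570 and 2416 in SDD libraries, and rose by 1.43 in RISDD against SDD (adjusted p = 3.05e-05). Rpl5 and Rpl11 had log2 changes of 0.12 and 0.06 there (adjusted p = 0.740 and 0.763).

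**Figure D5:**
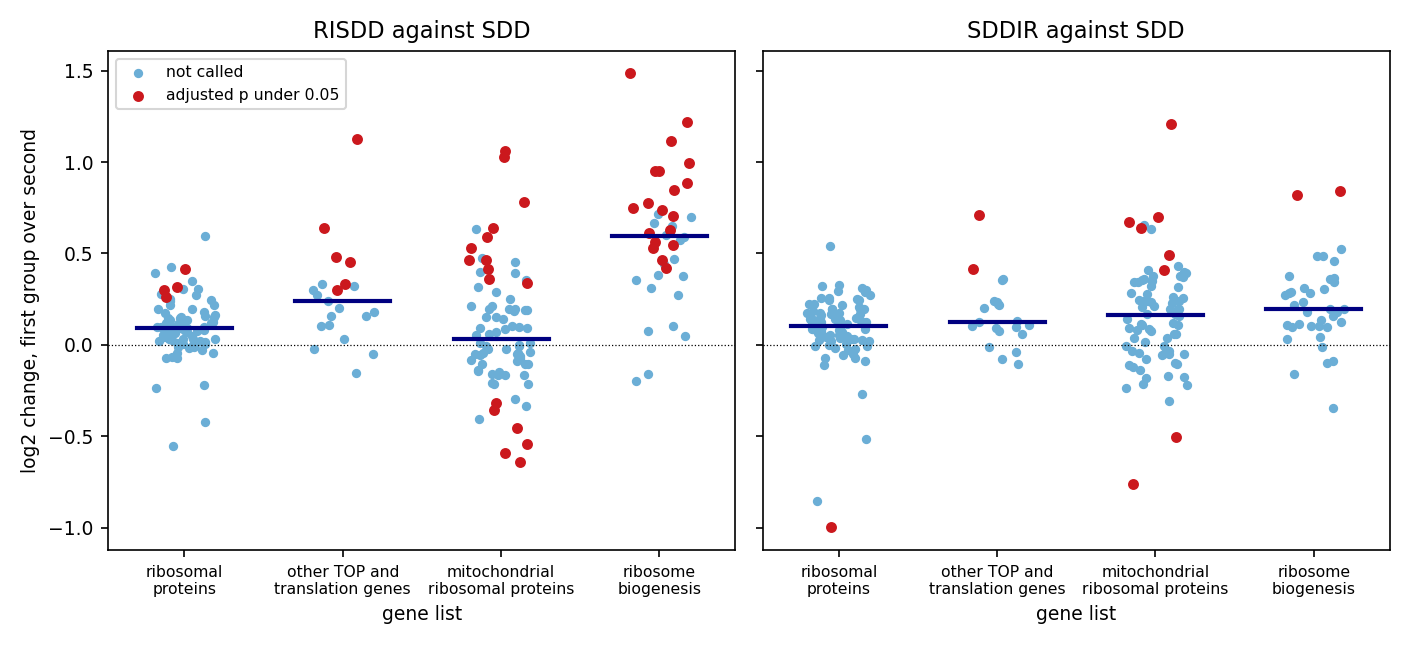
Log2 change of single genes (points; red, adjusted p under 0.05; dark line, list median) in 4 gene lists for RISDD against SDD (left) and SDDIR against SDD (right). Ribosome biogenesis genes centre on 0.59 in RISDD with 19 of 38 called, while the 82 ribosomal protein genes centre on 0.09 with 4 called. Of all tested genes, 42.6% were called in RISDD.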

How the data were processed

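PolyA RNA was taken from sorted cells and sequenced with the NEBNext Ultra II Directional kit, per the labels. Trim Galore 0.6.10, Salmon 1.10.3 and the GRCm39 build are named in the submitters' processing notes. How transcripts were summed and libraries scaled is not stated in the sources used here. The authors deposited signal, that is gene counts scaled by 1 constant in each library, and 100% of values were whole multiples of that library's step (tolerance 0.001). The heading SDDIR_B stood over a pair of identical columns, so 1 column was left out and SDDIR has 2 libraries. Whether the column kept is replicate B or C cannot be settled, and the letter B follows its heading. The third SDDIR sample and the ERCC spike-ins were not used here.

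A single limma 3.58.1 model (R 4.3.3) covered the 4 groups on log2(value + 1), with trend and robust moderation, for 14207 genes reaching 10 in 3 or more libraries. Log2 changes on this scale understate those of low genes. Adjusted p-values are Benjamini-Hochberg over all of these genes, and a gene was called, and counted as risen or fallen, when its adjusted p was under 0.05. No set test was used, and the code was tested on simulated data.

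Alternatives changed the scaling (upper quartile, quantile), the pseudocount (0.5, 10), the filter (none, or 50) and the moderation (dropping its trend and robust options), fitted only the 2 groups compared, added a replicate block, used DESeq2 1.42.0 on recovered reads, or left out each library. After the data were seen, edgeR 4.0.16 on recovered reads and members summed with named copies were added.

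Named genes were the 5 largest called rises and falls of members in each comparison where either group averaged 100 or more. The paralogs with their partners, the stalk genes, Rpl5, Rpl11, Rps6 and Rpsa were also set for naming, but not all of these are given for every comparison. Each other list gave at most 3 called genes with the largest changes. The same rule was used without NIL C. Members and lists were chosen with earlier results of these data known.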

Additional observations from a re-analysis of the deposited data

How the results depend on the processing

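Median changes kept their direction under the alternatives run, except RISDD against SDDIR. Leaving out each library in turn gave medians of -0.46 to -0.14 (SDD against NIL), 0.05 to 0.17 (SDDIR against SDD), 0.07 to 0.11 (RISDD against SDD) and -0.04 to 0.07 (RISDD against SDDIR). Counts of called genes then ran from 0 to 27 lower in SDD against NIL, 0 to 17 higher and 0 to 3 lower in SDDIR against SDD, 1 to 21 higher and 0 to 1 lower in RISDD against SDD, and 0 to 3 higher and 0 to 1 lower in RISDD against SDDIR. With SDDIR reduced to 1 library, its spread was assumed to be that of the other groups. Except without NIL C, the shares of all tested genes called in these fits are not given, so the ranges of counts cannot be set against them.

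With only the 2 groups compared, 0 genes were lower in SDD against NIL, 8 were higher and 2 lower in SDDIR against SDD, 21 and 2 in RISDD against SDD, and 3 and 3 in RISDD against SDDIR. Those fits called 4.91% of all tested genes in SDD against NIL and 37.7% in SDDIR against SDD. They called 63.1% in RISDD against SDD and 34.7% in RISDD against SDDIR. DESeq2 gave 21 lower in SDD against NIL, 4 higher in SDDIR against SDD and 7 higher in RISDD against SDD. Upper-quartile scaling gave 4 lower in SDD against NIL and 1 higher in SDDIR against SDD, and quantile scaling 6 higher in SDDIR against SDD. For RISDD against SDD, no filter, limma without trend and robust moderation, and edgeR each gave 2 higher. The shares of all tested genes called under the other scalings, filter and moderation are not given, so those counts cannot be set against them. Rpl22l1 in SDD against NIL turned to -0.60 without NIL C and was 1.04 without NIL B, and to this extent rests on NIL C. Apart from the groups left out or the number of samples, the cause was not tested.

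Without mitochondrially encoded genes the members' share was 4.31% in RISDD, 4.70% in SDDIR and 4.01% in SDD, and without the delivered factors it was 4.23% in RISDD. With a replicate block, 3 genes were higher in RISDD against SDD, and no other count changed. No share of all tested genes is given for that fit. The block moved the median of RISDD against SDDIR to -0.03, and the letter of SDDIR B rests on a heading that stood over 2 columns. The letters do not show a pairing by the design. With each group's mean taken out, same-letter libraries of different groups correlated at 0.000225 to 0.271 (15 pairs) and others at -0.198 to 0.137 (30 pairs). Taking out the mean makes these pairs depend on each other, and SDDIR A and SDDIR B give values of opposite sign throughout. In these values 10 of 11 libraries always correlated best with their own letter, a hint from the data only. Reads per library limit small rows such as Rps27 and Rpl39l most.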
